A study of Homo sapiens with 3 samples.

Results

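The 10 genes of prostaglandin and lipoxygenase metabolism described here are *PLA2G4A*, *PTGS1*, *PTGS2*, *PTGES*, *PTGER2*, *PTGER3*, *PTGER4*, *ALOX5*, *ALOX12* and *ALOX15*, out of 11963 genes measured in an immortalized human corneal epithelial line. They were chosen by name, and every probe set annotated to one of them and to no other gene was kept, 26 of the 19071 probe sets that name a single gene. *PTGER3* had 10 of them, *ALOX5* had 4, *PTGS1* had 3, and *PTGES* and *PTGER4* had 2 each, while the other 5 genes had 1 each.

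*PTGES*, the prostaglandin E synthase gene, was the only one of the 10 above background on every array, against 44.0% of all genes. The mean distance of its brighter probe set from the background threshold was 4.18 log2 units, and 2.38 with the highest value of the background panel as the threshold. The cyclooxygenase gene *PTGS1* lay at the threshold, and the inducible cyclooxygenase gene *PTGS2* and the 5-lipoxygenase gene *ALOX5* lay below it by less than 1 log2 unit. The phospholipase gene *PLA2G4A*, the receptor genes *PTGER2*, *PTGER3* and *PTGER4* and the lipoxygenase genes *ALOX12* and *ALOX15* lay further below. By limma on genes at their brightest probe set, 1 of the 10 lay above the threshold, 8 below it and *PTGS1* on neither side. Of all genes 43.0% lay above and 48.5% below. Of the 59 genes of the background panel, from which the threshold was taken, 53 also lay below.

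The cells were SV40-immortalized human corneal epithelial cells (iHCE), a line that carries the viral large T antigen, at passages 22 to 23. They were grown on collagen-coated filters in medium with 15% serum, 0.1 µg/ml cholera toxin and 10 ng/ml EGF, first submerged and then at an air-liquid interface with 40 µg/ml ascorbic acid added. RNA from 3 independent replicate cultures was hybridized to Affymetrix arrays, 1 array per culture. Their electrical resistances were 489, 439 and 468 Ω · cm2 in cultures 1, 2 and 3. There was a single group with no treatment and no control, so levels could be set against a background but not against another condition, and the arrays of corneal tissue were not analysed here. All 3 cultures are of the same line, so their spread is one between replicate cultures and not between donors.

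Values are log2 expression values as the authors computed them by RMA. Background was read from a panel of 59 measured genes that belong to retina, liver, muscle, pancreas and other organs, and a call above background meant a value over the panel's 95th percentile on all 3 arrays. This threshold was 7.16, 7.03 and 7.22 in cultures 1, 2 and 3. Distances from it were also tested with limma, two-sided, with Benjamini-Hochberg adjustment over all 19071 probe sets. The test took the threshold as known. Its SEs and p-values hold the spread between cultures and not the uncertainty of a percentile read from 59 genes. The panel genes themselves read from 3.54 to 9.26. Because the threshold is their own 95th percentile, nearly all of them lie below it by construction, 53 of the 59 by limma on genes. A value below the threshold is therefore within background, and a small p for lying below does not set a gene apart from the panel. Because affinity differs from one probe set to the next, their levels were not compared as amounts, and a probe set not above background does not show that its transcript was absent. Precision is limited by having 3 arrays. In RNA from whole cultures, fewer expressing cells and less transcript per cell cannot be told apart.

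The array of culture 1 stood somewhat apart. Pearson's r across probe sets was 0.994 between cultures 2 and 3, and 0.988 and 0.987 between culture 1 and these. Spiked poly-A controls had their lowest value in culture 1 at 24 of 24 probe sets, with a median shift of -1.37 log2 units. The 3′ minus 5′ signal of *ACTB* ran from 2.99 to 3.25 and that of *GAPDH* from 1.28 to 1.64 log2 units over the arrays. Markers of the corneal epithelium, *KRT3*, *KRT12*, *KRT5*, *KRT14*, *PAX6* and *ALDH3A1*, were above background in 0 of 6 cases, with values from 4.61 to 7.11, so the defining genes of the labelled cell type were not detected over background. The simple epithelial genes *KRT7*, *KRT8*, *KRT18*, *KRT19* and *EPCAM* were above background in 5 of 5, with values from 9.90 to 12.76. For *KRT7* this held at 1 of its 2 probe sets.

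The pathway starts when a phospholipase A2 frees arachidonic acid from membrane lipids. Cyclooxygenases turn the acid into the unstable endoperoxide prostaglandin H, and terminal synthases turn that into the single prostanoids, of which prostaglandin E is made by prostaglandin E synthases. Prostaglandin E acts through the EP receptors, which are coupled to G proteins. Lipoxygenases instead oxygenate arachidonic acid to hydroperoxy acids and leukotrienes. In the cornea these lipids are known for their part in inflammation, in the growth of new vessels and in epithelial wound healing.

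*PTGES*, which encodes the inducible microsomal prostaglandin E synthase, was above background in all 3 cultures on both of its probe sets. The brighter one, 210367_s_at, read 11.50, 11.25 and 11.20 in cultures 1, 2 and 3 (11.32 ± 0.16, mean ± SD, n = 3). The other, 207388_s_at, read 8.67, 8.48 and 8.65 (8.60 ± 0.11). Every value exceeded the threshold of its array, by 3.98 to 4.34 log2 units for the first and by 1.43 to 1.51 for the second. The mean distances of 4.18 (SE 0.12) and 1.46 (SE 0.12) passed the test (limma, adjusted p = 9.5e-23 and adjusted p = 1.1e-12). These p-values leave out the uncertainty of the threshold itself. By the same test 34.8% of all probe sets lay above the threshold. Both probe sets are of the type marked _s_at, which may bind more than one transcript, and *PTGES* has no probe set of another type here. With the highest panel value as the threshold, 207388_s_at lost its call, at a mean distance of -0.33. Of all 19071 probe sets 35.5% were above background, against 2 of the 26 probe sets of the 10 genes, both of them those of *PTGES*.

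**Figure D1:**
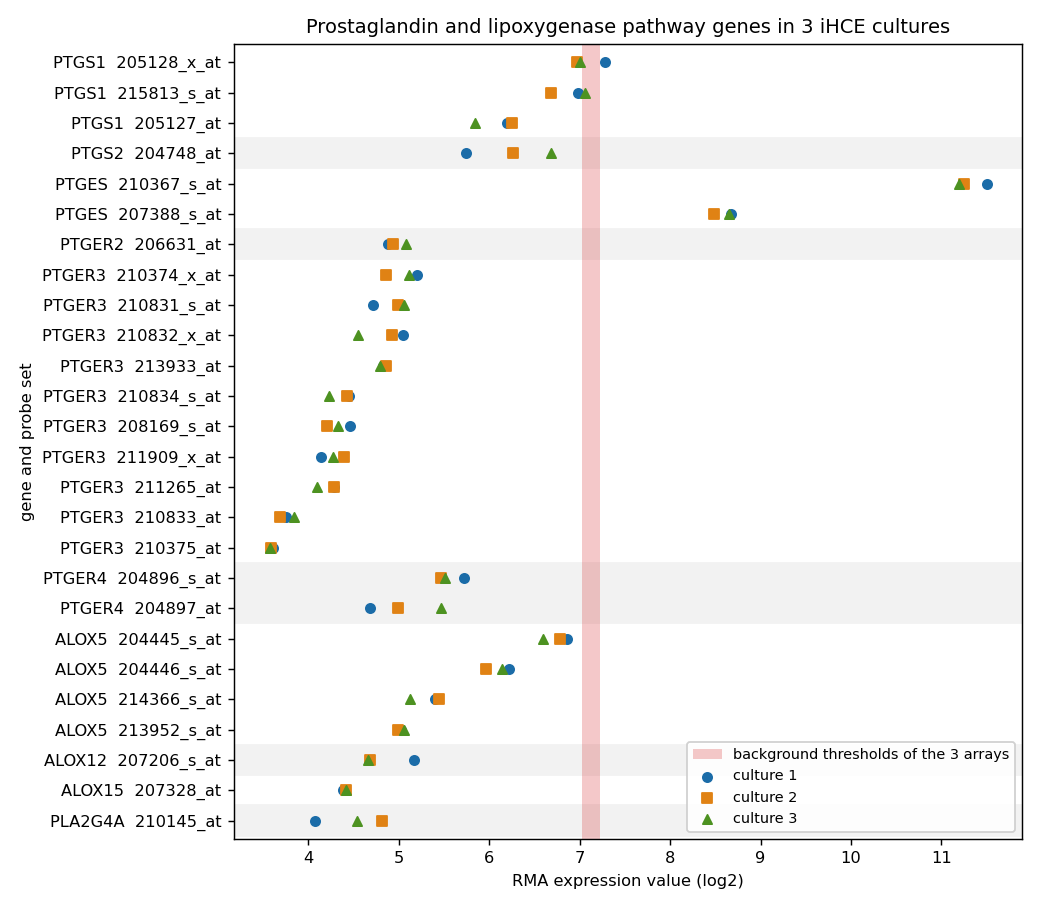
RMA expression values (log2, horizontal axis) of the 26 probe sets of the 10 genes, 1 row per probe set, with 1 symbol for each of the 3 iHCE cultures. The red band spans the background thresholds of the arrays, 7.03 to 7.22. The 2 rows of *PTGES* lie to the right of the band, *PTGS1* touches it and the remaining rows lie to its left.

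*PTGS1*, the cyclooxygenase that most tissues express constitutively, could not be told apart from background. Its brightest probe set, 205128_x_at, read 7.28, 6.97 and 7.01 (7.08 ± 0.17, SD, n = 3) and exceeded the threshold in culture 1 only. The mean distance from the threshold was -0.05 (SE 0.12, limma adjusted p = 0.68). Its probe set 215813_s_at read 6.98, 6.69 and 7.06, below the threshold on each array (adjusted p = 0.067 by limma). The third, 205127_at, read 6.20, 6.25 and 5.84, at a mean distance of -1.04 log2 units (limma adjusted p = 8.2e-09). None of the 3 probe sets was thus above the threshold on every array. By limma 205127_at lay below the threshold, and the other probe sets were not told apart from it. The one nearest to it is of the type marked _x_at, which can bind unrelated transcripts. With the 90th percentile of the panel as the threshold, or the panel taken over all its probe sets, *PTGS1* was called above background.

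*PTGS2*, the cyclooxygenase that growth factors and cytokines induce, varied more between the cultures than any other of the 26 probe sets. It read 5.74, 6.27 and 6.69 in cultures 1, 2 and 3 (6.23 ± 0.47, SD, n = 3), lowest in culture 1 and highest in culture 3. No value reached its threshold, with distances of -1.42, -0.76 and -0.53 log2 units. The mean distance was -0.90 (SE 0.14, limma adjusted p = 4.7e-07), where 57.0% of all probe sets lay below the threshold by this test. The SD of *PTGS2* was larger than that of 97.9% of all probe sets. The poly-A controls and *PTGS2* were both lowest on the array of culture 1, and the part of that array in the spread was not tested. Values below the threshold carry little order, and each culture had 1 array, so the cultures were not tested against each other.

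The sequences just before the starts of *PTGES*, the gene above background, and of *PTGS2*, the one that varied most, are shown for comparison. The RefSeq promoter table of GRCh38.p14 held windows for 7 of the 10 genes, and the 250 bases before the start are given 5′ to 3′ for *PTGES* (chr9:129753043-129753292, minus strand) and *PTGS2* (chr1:186680424-186680673, minus strand). The capitals mark the GC box letters GGGCGG and the EGR1 motif in *PTGES*, which overlap, and the TATA box letters TATAAA and the cyclic AMP response element core CGTCA in *PTGS2*.
PTGES: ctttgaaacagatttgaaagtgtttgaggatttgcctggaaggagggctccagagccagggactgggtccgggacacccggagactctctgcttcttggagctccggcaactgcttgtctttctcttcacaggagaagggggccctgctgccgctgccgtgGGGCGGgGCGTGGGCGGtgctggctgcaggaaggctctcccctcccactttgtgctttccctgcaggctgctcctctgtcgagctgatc
PTGS2: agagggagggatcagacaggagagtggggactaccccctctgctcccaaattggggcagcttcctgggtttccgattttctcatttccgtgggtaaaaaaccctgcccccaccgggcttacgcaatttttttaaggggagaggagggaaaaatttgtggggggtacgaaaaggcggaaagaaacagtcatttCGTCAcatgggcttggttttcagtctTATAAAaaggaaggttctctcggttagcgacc
The *PTGES* window held GGGCGG at 2 places, beginning 89 and 78 bases before the start, and the EGR1 letters GCGTGGGCG once, 82 bases before it. It held no TATAAA. The *PTGS2* window held TATAAA 32 bases before the start and CGTCA 58 bases before it, and no GGGCGG. Over 35116 upstream windows of the same length, searched on both strands, 42.6% held GGGCGG, 0.721% GCGTGGGCG, 10.7% TATAAA and 21.2% CGTCA. Neither window held the AP-1 letters TGACTCA, which 4.20% of all windows held, or CACGTG, a form of the E-box, which 6.35% held. Other forms of the E-box were not searched. These are matches of letters only, chosen with the results known, and they do not show binding in these cells.

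*PLA2G4A* encodes the cytosolic phospholipase A2 that releases arachidonic acid on stimulation. Its probe set read 4.07, 4.82 and 4.54 in cultures 1, 2 and 3 (4.47 ± 0.38, SD, n = 3). All 3 values were below the threshold, at distances of -3.09, -2.21 and -2.68 log2 units (mean -2.66, limma adjusted p = 2.8e-17). Like *PTGS2* it was lowest in culture 1, and its SD exceeded that of 94.97% of all probe sets.

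*PTGER2*, *PTGER3* and *PTGER4*, which encode EP receptors, were below the threshold on each array at every probe set. *PTGER2*, whose receptor raises cyclic AMP, read 4.88, 4.93 and 5.08 (4.96 ± 0.11, SD, n = 3). *PTGER4*, whose receptor also raises cyclic AMP, read 5.72, 5.46 and 5.51 at its brighter probe set and 4.68, 4.99 and 5.47 at the other. The cultures thus came in different orders at the 2 probe sets of *PTGER4*, highest in culture 1 at the first and lowest there at the second, whose range was 0.79 log2 units. *PTGER3* encodes the receptor that lowers cyclic AMP and is made in several splice forms. Its 10 probe sets had means from 3.59 to 5.06, each at a distance of -1.96 log2 units or lower on every array. All 13 probe sets of the 3 receptor genes, 10 of them those of *PTGER3*, lay below the threshold by limma. Of all probe sets 57.0% did. The nearest, that of *PTGER4*, had a mean distance of -1.57 (limma adjusted p = 3.0e-13). By limma on genes, 53 of the 59 panel genes, from which the threshold was taken, lay below it too.

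Of the 3 lipoxygenase genes *ALOX5* came closest to the threshold. *ALOX5* encodes the enzyme that starts leukotriene synthesis and is best known from leukocytes. Its brightest probe set, 204445_s_at, read 6.86, 6.78 and 6.59 (6.75 ± 0.14, SD, n = 3), at distances of -0.29, -0.25 and -0.63 log2 units (limma adjusted p = 0.0037). Its other probe sets had means of 6.11, 5.32 and 5.03. *ALOX12*, the platelet-type 12-lipoxygenase gene, read 5.17, 4.68 and 4.66 and was highest in culture 1. *ALOX15*, the 15-lipoxygenase gene, read 4.38, 4.41 and 4.42, with an SD of 0.017, which exceeded that of 1.19% of all probe sets. This far below the threshold, a small spread is no measure of steady expression.

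Markers of the cells known for these enzymes were at background too. Of 7 measured leukocyte genes (*PTPRC*, *ITGB2*, *CD14*, *CD3D*, *CSF1R*, *FCER1G* and *LCP2*) 0 were above background, with values from 4.94 to 6.92. Of 3 mast cell genes (*CPA3*, *HDC* and *KIT*) 0 were, with values from 5.23 to 5.96. Of 5 platelet genes (*PF4*, *ITGA2B*, *GP9*, *GP1BA* and *PPBP*) 0 were, although *GP9* exceeded the threshold in culture 1. Of 4 endothelial genes (*PECAM1*, *CDH5*, *VWF* and *TEK*) and 5 keratocyte and fibroblast genes (*KERA*, *LUM*, *DCN*, *THY1* and *PDGFRB*) 0 were above on every array, with *TEK* above on 2 arrays and *THY1* on 1.

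Over the cultures, the spread of the 26 probe sets lay near that of probe sets in general. Their median SD was 0.137 and that of all 19071 was 0.143. A range over 0.5 log2 units was found at 5 of the 26 and at 15.9% of all, and these 5 were *PTGS2*, *PLA2G4A*, *ALOX12*, 1 probe set of *PTGER4* and 1 of *PTGER3*. All 5 were below the threshold. Culture 1 was the one apart from both others at 11 of the 26, where 44.1% of all probe sets had it so. It was lowest at 7 of the 26 and in 36.4% of all, and highest at 12 of the 26 and in 38.4% of all.

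**Figure D2:**
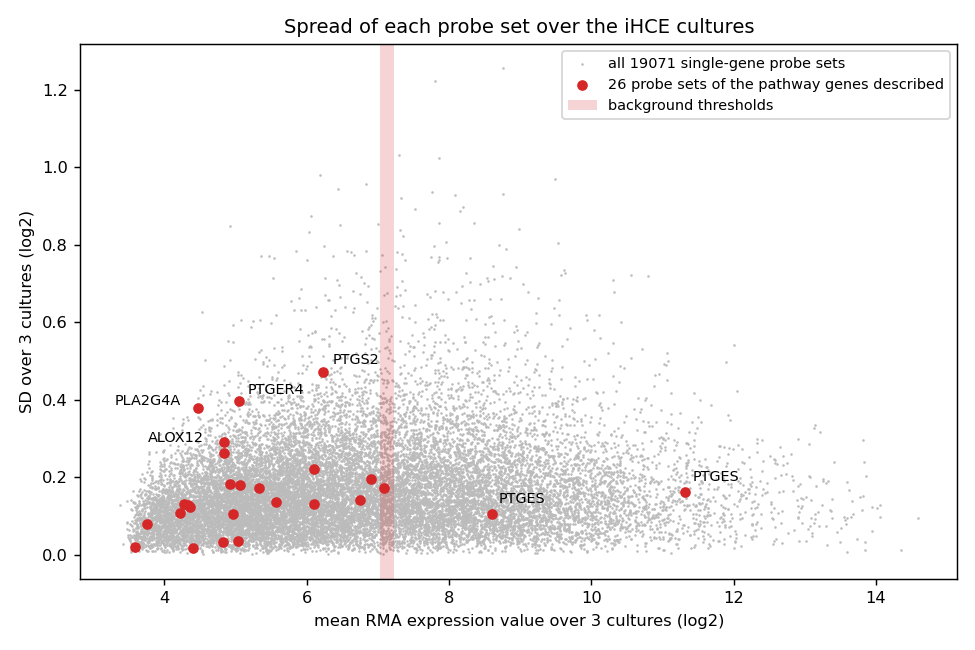
SD over the 3 cultures (log2, vertical axis) against the mean expression value (log2, horizontal axis) of each probe set. Grey points are all 19071 single-gene probe sets, red points the 26 of the 10 genes, and the red band the background thresholds. *PTGS2*, *PTGER4* and *PLA2G4A* lie highest among the red points, left of the band, and the 2 points of *PTGES* lie right of it among grey points of like spread.

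Beyond the 10 genes, the rest of the eicosanoid pathway was read from 56 further genes by role, of which 45 were measured. Beside 44.0% of all genes, 7 of these 45 were above background, or 15.6%. This count was 12 with the 90th percentile of the panel as the threshold and 2 with its highest value. The 7 were *PTGES3*, *PTGES2*, *CBR1*, *PTGER1*, *CBR3*, *LTA4H* and *COTL1*. The median distance from the threshold, each gene at its brightest probe set, was -1.12 log2 units for these 45 genes and -1.83 for the 10. It was -0.16 over all genes and -1.86 for the 59 genes of the background panel. The counts by role below are to be read beside the same 44.0% of all genes.

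Of 8 measured genes of prostanoid synthases 3 were above background, or 37.5%, near the 44.0% of all genes. Of these 3 genes, 2 were further prostaglandin E synthases. *PTGES3*, the cytosolic synthase gene, whose protein is also a cochaperone of heat shock protein 90, read 11.82, 11.79 and 11.98. *PTGES2*, the gene of the other membrane-associated synthase, read 8.27, 8.15 and 8.08. All 3 prostaglandin E synthase genes were thus above background in each culture. With the highest panel value as the threshold, 8.34, 9.26 and 9.20 in cultures 1, 2 and 3, *PTGES2* was not above it on any array. The carbonyl reductase gene *CBR1*, whose enzyme can turn prostaglandin E into prostaglandin F, read 7.32, 7.41 and 7.41, at a mean distance of 0.25 log2 units. By limma this passed the test with adjustment over all probe sets (adjusted p = 0.04998) and not with adjustment over all genes (adjusted p = 0.0502). The other 5 measured genes of the list were not above background. Among them *AKR1C3*, whose enzyme makes prostaglandin F, read 4.32 to 4.44, *HPGDS*, a prostaglandin D synthase gene, 5.55 to 5.93, and *PTGDS*, the lipocalin-type prostaglandin D synthase gene, 6.84 to 7.14.

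Of 6 measured genes of other prostanoid receptors, *PTGER1* alone was above background on each array. It encodes the EP receptor that raises calcium, and read 7.62, 7.28 and 7.28 at a probe set of the type marked _x_at, while its other probe set was not above background. *PTGFR*, the prostaglandin F receptor gene, read 3.87 to 3.92, and *PTGDR* and *PTGDR2*, the prostaglandin D receptor genes, read 4.17 to 4.57 and 6.34 to 6.52. Of 4 measured genes of transport and inactivation *CBR3* was above background, with 8.09, 8.08 and 7.94. *HPGD*, whose enzyme starts the breakdown of prostaglandin E, read 5.32, 5.79 and 5.44, its transporter gene *SLCO2A1* read 6.36, 5.87 and 6.14, and the efflux pump gene *ABCC4* read 6.20, 6.60 and 6.19.

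On the lipoxygenase side 2 of 10 measured genes were above background. *LTA4H*, whose enzyme makes leukotriene B and also acts as an aminopeptidase, read 10.94, 10.95 and 11.01. *COTL1*, a small actin-binding protein that also binds 5-lipoxygenase, read 8.03, 8.65 and 8.98, lowest in culture 1. *ALOX5AP*, the protein that presents arachidonic acid to 5-lipoxygenase, read 5.92, 5.78 and 5.52, and the skin and epithelial lipoxygenase genes *ALOX12B* and *ALOX15B* read 5.18 to 5.35 and 5.59 to 6.21. None of 6 measured leukotriene and lipoxin receptor genes and none of 11 measured phospholipase A2 genes was above background on every array. *CYSLTR1*, *CYSLTR2* and *CMKLR1* read 3.74 to 3.87, 5.52 to 5.75 and 4.95 to 5.39. *PLA2G1B*, *PLA2G12A* and *PLA2G15* read 3.99 to 4.35, 6.07 to 6.24 and 6.85 to 7.06. *PLA2G6*, a calcium-independent phospholipase A2 gene, read 7.65, 7.11 and 7.02, and *LTB4R*, a leukotriene B receptor gene, read 7.17, 7.19 and 6.68, each above the threshold in cultures 1 and 2 and not told apart from it by limma.

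**Figure D3:**
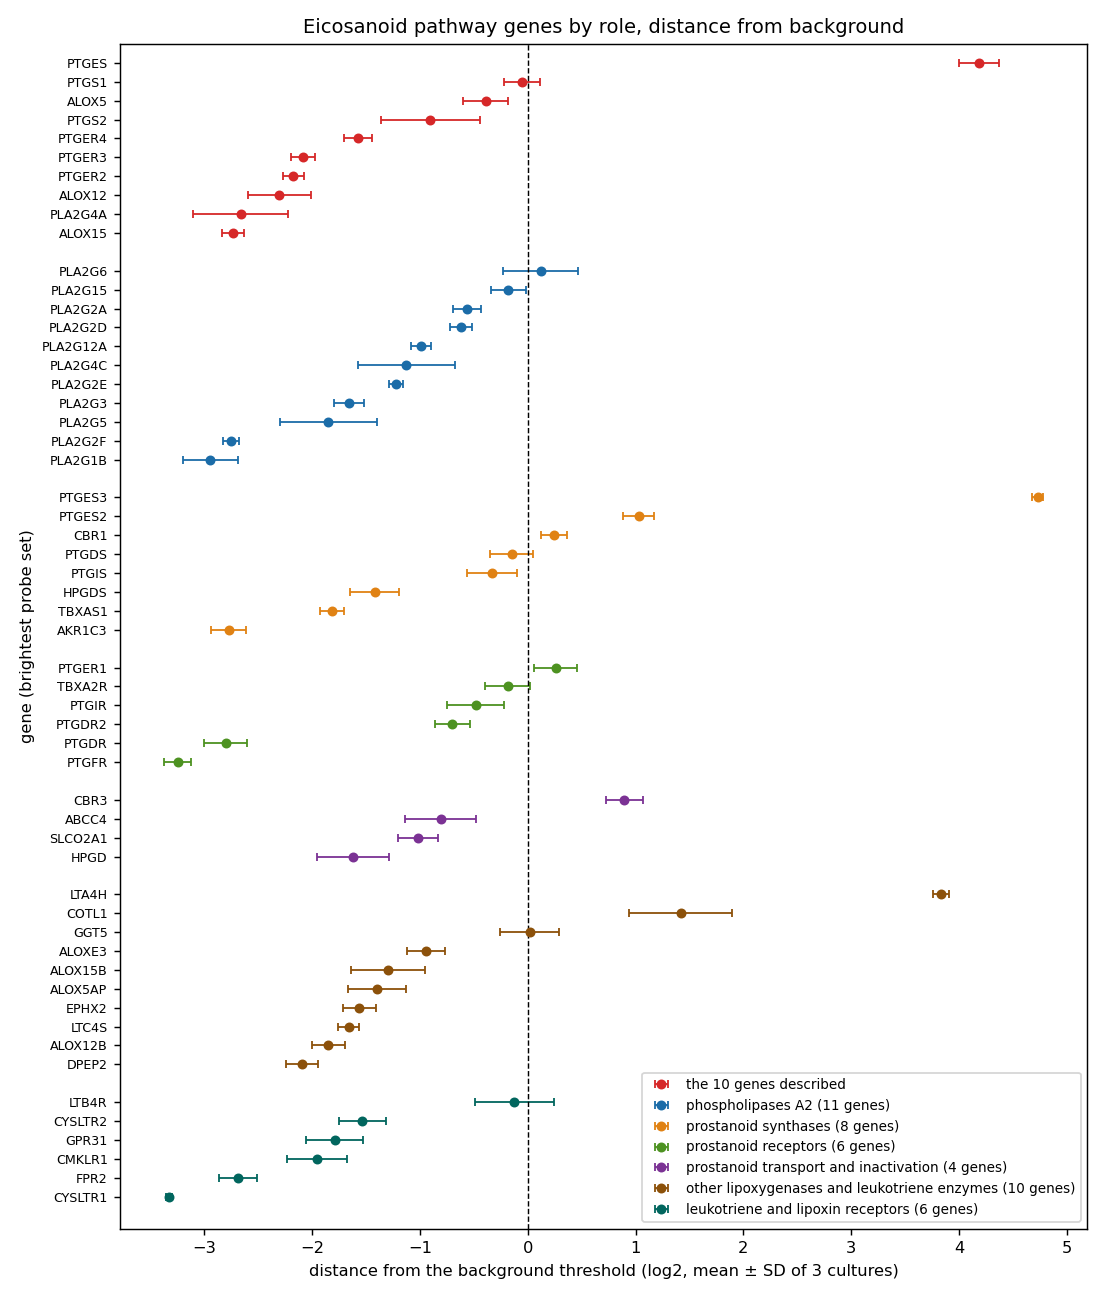
Distance from the background threshold (log2, horizontal axis, mean ± SD of 3 cultures) of each measured eicosanoid gene at its brightest probe set, grouped by role. The dashed line at 0 is the threshold. *PTGES*, *PTGES3* and *LTA4H* lie furthest to the right, and most genes of every group lie left of the line.

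Genes known to induce *PTGS2* and *PTGES*, or to carry the inducing signal, were mostly above background. Of 14 measured genes 11 were, or 78.6%, beside 44.0% of all genes, but the list was chosen with earlier results known. *EGR1*, the zinc finger factor whose motif letters stand in the *PTGES* window, read 12.01, 11.76 and 11.53, and both of its probe sets were above background. *IL6* read 11.13, 11.08 and 11.53, *CEBPB* 10.37, 10.66 and 10.75 and *CEBPD* 9.32, 9.33 and 9.46. The NF-kappaB subunit gene *RELA* read 9.28, 8.83 and 8.82, the EGF receptor gene *EGFR* 8.59, 8.56 and 8.84, and its ligand gene *HBEGF* 8.41, 7.82 and 8.74. *EGF* itself, which was supplied in the medium, read 4.30, 4.29 and 4.11. *IL1A* and *TNF* read 5.48 to 6.16 and 6.25 to 6.70, and these and *EGF* were all below the threshold. *IL1B* exceeded the threshold on each array at its brighter probe set, with 7.56, 7.74 and 8.41. Not all probe sets of these genes were above background: 1 of 2 was for *CEBPD*, *RELA* and *IL1B*, 2 of 6 for *EGFR* and 2 of 3 for *HBEGF*.

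Of 20 genes that act downstream of EP receptors 13 were above background, or 65.0%, beside the same 44.0%, again in a list chosen with earlier results known. *GNAS*, the gene of the G protein subunit that cholera toxin keeps active, read 12.57, 12.40 and 12.01. *GNAI3* and *GNAQ*, genes of the subunits for lowering cyclic AMP and for calcium release, read 11.22, 11.04 and 11.39 and 8.49, 9.05 and 9.09. Of the protein kinase A genes *PRKAR1A* read 10.48, 10.16 and 10.17, *PRKACB* 8.95, 8.80 and 9.11 and *PRKAR2A* 8.46, 8.99 and 8.78. The nuclear receptor gene *NR4A3*, an early target of cyclic AMP, had the widest range of this list, with 9.07, 7.90 and 8.17 and the highest value in culture 1. The adenylyl cyclase genes *ADCY3*, *ADCY6* and *ADCY7* were above the threshold on 2, 1 and 0 arrays. *ADCY9* read 7.75, 7.72 and 7.88 and was above background on each array. These values are those of the brightest probe sets. Of all probe sets 6 of 9 were above background for *GNAS*, 3 of 3 for *PRKAR1A* and 2 of 3 for *GNAI3* and *PRKAR2A*. For *GNAQ* and *PRKACB* 1 of 2 was, and for *NR4A3* and *ADCY9* 1 of 3.

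**Figure D4:**
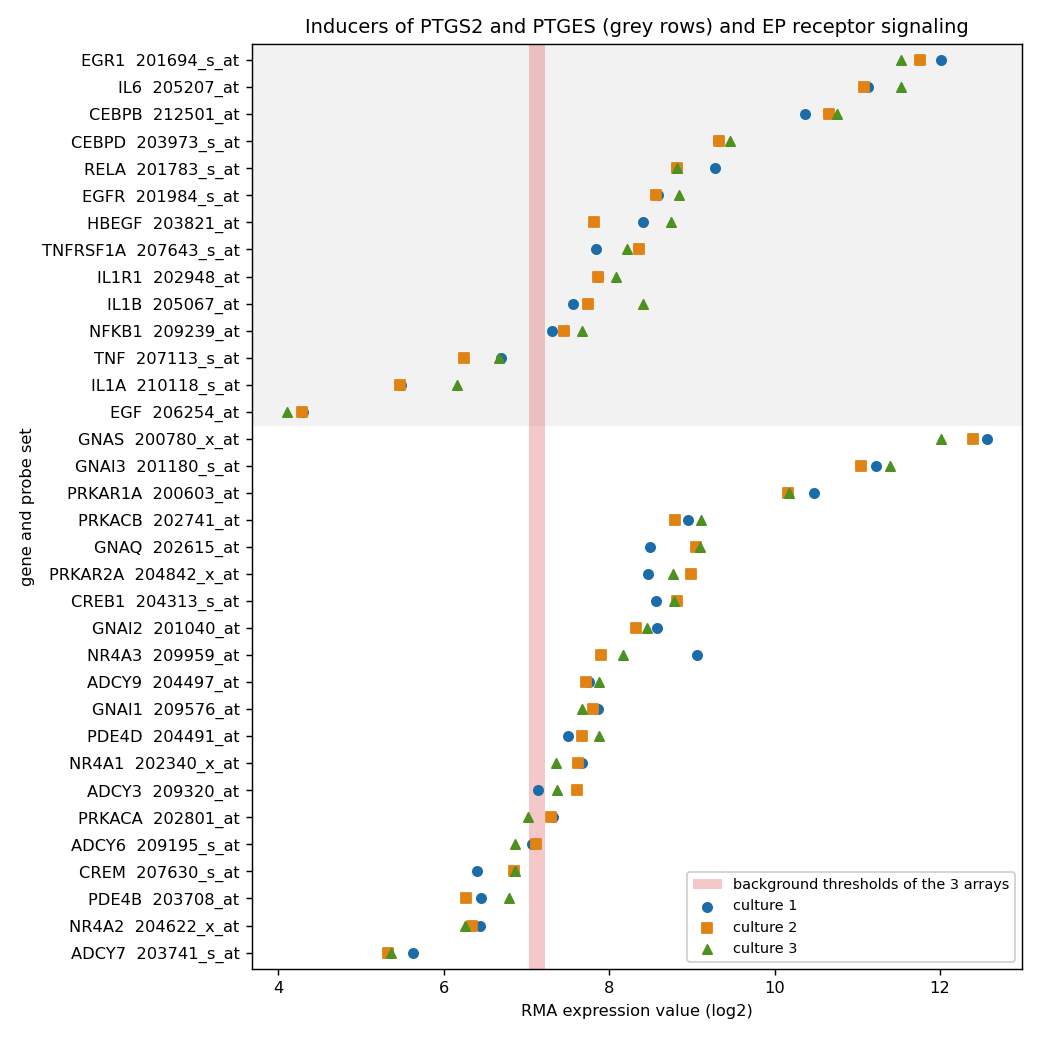
RMA expression values (log2, horizontal axis) in the 3 iHCE cultures of 14 genes that induce *PTGS2* and *PTGES* (grey rows) and 20 genes of EP receptor signaling (white rows), each at its brightest probe set. The red band spans the background thresholds. In the grey rows *TNF*, *IL1A* and *EGF* lie left of the band, and *EGR1* and *GNAS* lead their lists.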

How the data were processed

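The 3 stratified iHCE cultures gave RNA for 1 Affymetrix array each. The authors deposited log2 values of 22283 probe sets, for which the submitters' processing notes name RMA and R 2.8.0. RMA corrects background, normalizes between arrays and compresses low values. The methods describe RMA over the iHCE and tissue arrays together, with probes regrouped by Entrez gene. The deposited table holds the manufacturer's probe sets instead, and whether it came from a joint run, and its genome build, are not given in the sources used here.

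Of the probe sets 19071 named 1 gene in the platform annotation, 1043 several, and 2169 were unlisted there. Symbols were updated through Entrez numbers in RefSeq (GRCh38.p14), where 12 were not found. A gene was taken at its brightest probe set, giving 11963 genes. The background panel listed 68 genes, of which 59 were measured. Distances from the threshold were tested with limma 3.58.1 in R 4.3.3, and an adjusted p under 0.05 passed. limma pools the spread over all probe sets, so SEs lay near 0.12. The test was tried on simulated data first. It called 26 of 50 probe sets placed 1 log2 unit above the threshold and 26 of 50 placed 1 below. At a distance of 0.5 it called 0 of 50 above and 1 of 50 below. Of 18871 placed at the threshold it called 1. The simulation drew new noise with each probe set's SD over the 3 arrays taken as its true SD. Most real probe sets also lay off the threshold, unlike the simulated ones. The simulated shares therefore do not describe how often real probe sets pass. In the data, 204445_s_at of *ALOX5* passed at a mean distance of -0.39 (limma adjusted p = 0.0037).

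The genes, the panel and the lists were chosen with earlier results of these data known. Named were the 10 genes, all measured markers and, of each further list, up to 6 of the highest above background, the one of widest range among those above background, and up to 3 not above background in alphabetical order. *IL1B*, *ADCY9*, *PLA2G6* and *LTB4R* were added once their values had been seen. Alternatives tried were other thresholds and panels, the mean over probe sets, leaving out _x_at and _s_at probe sets, quantile normalization, leaving out each culture, and the limma call. Other Python steps used pandas 2.3.3.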

Additional observations from a re-analysis of the deposited data

How the results depend on the processing

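*PTGES* kept its call above background in each of the 10 alternatives that measured it, at 2.38 to 4.49 log2 units over the threshold, and 8 of the 10 genes kept theirs not above background throughout. *PTGS1* crossed the threshold at a mean distance of 0.26 with the 90th percentile and of 0.094 with the panel over all its probe sets (called above in both), and of 0.073 with the mean over probe sets and 0.029 without culture 3 (not called on every array). Leaving out each culture gave it -0.14 to 0.029. Its probe set 215813_s_at had a mean distance of 0.082 with the 90th percentile. With the highest panel value the second *PTGES* probe set fell to -0.33. The number of the 10 genes above background was 2 with the 90th percentile, 2 with the panel over all its probe sets, and 0 of 7 without _x_at and _s_at probe sets, where *PTGES* has none. The number of probe sets above was 1 with the highest panel value, by the call and by limma, and 0 of 10 without _x_at and _s_at ones, where limma put 10 below. Of the 45 other pathway genes 12 were above with the 90th percentile and 2 with the highest value. Leaving out each culture left 1 of the 10 genes, 2 of their probe sets and 7 to 10 of the other pathway genes above background, 21 to 22 probe sets below by limma, and a median SD of 0.115 to 0.155. No paired analysis was possible because there is a single group. The cause of these changes was not tested. The small number of arrays limits the precision, and values below the threshold are read within background.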
